A study of Homo sapiens with 2 samples.

Results

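Interactions of 9 megakaryocyte and platelet genes were examined in promoter-capture Hi-C lists of K562 cells: ITGB3, ITGA2B, GP1BA, CD9, THBS1, VWF, PF4, LTBP1 and FLI1. An interaction was a pair of restriction fragments listed by the authors, and it was assigned to a gene when 1 of its fragments was a captured (bait) fragment that holds either end of that gene on hg38. By this rule 8 of the 9 genes had a listed bait fragment and PF4 had none, while 13721 of 20056 protein-coding genes had one in all. A fragment is known as a bait only where it has a listed pair. A captured fragment without such a pair does not appear, so a missing bait need not mean that the promoter was not captured. The genes had 70 of the 138160 interactions listed in either library, 45 of 91305 in ponatinib and 46 of 84049 in DMSO. K562, an established cell line from a human chronic myelogenous leukaemia, carries the BCR-ABL1 fusion gene. Ponatinib, which blocks the ABL kinase, was given at 100 nM for 24 h, and control cells received the vehicle DMSO for the same time. Each treatment has 1 library, so the differences below have no replicate check and were not tested.

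The score of a listed pair is a value of the authors that the labels do not define, and none is below 5. Scores rank and describe pairs within a list. They were not normalised between the libraries, so 2 scores of 1 pair side by side describe the lists and not the strength of a contact. The lists carry no read counts, which leaves library depth unknown. A share in ponatinib is the number in ponatinib over the numbers of both lists summed, so a shared pair is counted for each list. Intervals are exact binomial (Clopper-Pearson) 95% intervals that cover counting error only and treat neighbouring fragments as independent. For shares in ponatinib they also treat both listings of a shared pair as independent, which they are not. The lists hold contacts and no expression, so the cells could not be checked against marker genes. Pairs that join chromosomes 9 and 22, the partners of the BCR-ABL1 rearrangement, numbered 1781 of the 6797 pairs between chromosomes in ponatinib and 1654 of the 6355 in DMSO.

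Megakaryocytes are the bone marrow cells that shed platelets. Platelets stick to damaged vessels through receptors for collagen-bound von Willebrand factor, clump through the fibrinogen integrin, and release stored proteins from their granules. Transcription factors of the GATA, ETS and RUNX families switch on these genes together, often through enhancers at a distance from the promoter. K562 cells have both erythroid and megakaryocytic traits and can be driven towards either fate by chemicals.

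Contacts were uneven among the genes. LTBP1 and CD9 held 28 of the 45 interactions in ponatinib and 27 of the 46 in DMSO, and 17 of the 21 interactions that both lists share. THBS1, ITGB3 and ITGA2B had between 2 and 12 in either list. GP1BA, VWF and FLI1 had at most 1 in each list. A gene was read for a 2-fold difference, by log2((ponatinib + 1)/(DMSO + 1)), where its numbers in ponatinib and DMSO summed to 5 or more. This held for 5 of the 9 genes, and 0 of them had 2-fold more or 2-fold fewer in ponatinib. Over all 9787 genes with that many, 9.92% had at least 2-fold more, 6.26% at least 2-fold fewer and 16.2% either.

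**Figure D1:**
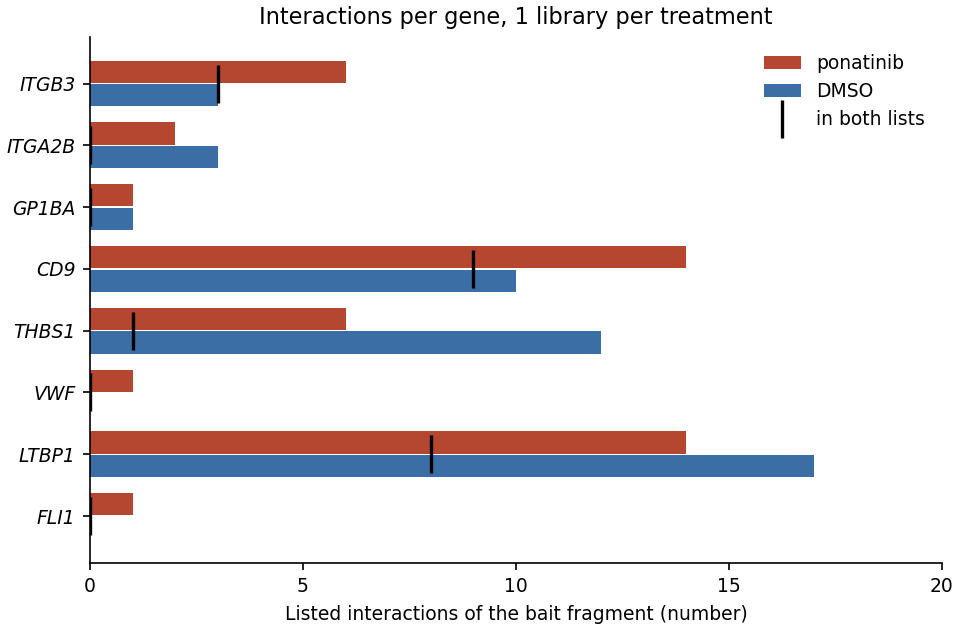
Number of listed interactions (x axis) of the bait fragment of each gene (rows), in ponatinib (red) and DMSO (blue), 1 library each, with the number found in both lists as a black tick. LTBP1 and CD9 have the longest bars in ponatinib, 14 each, and THBS1 has 6 in ponatinib against 12 in DMSO.

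Some of these bait fragments could be shown with their promoter sequence. The RefSeq promoter table (GRCh38.p14, 250 bases before to 50 after a transcription start) held 4 of the 9 genes. The windows whose start lies on a listed bait are shown for ITGA2B, THBS1 and LTBP1, together with 2 of the 3 for CD9. Each lies on the bait fragment whose contacts are described below. The lists do not show at which part of a fragment it was captured. Capitals mark matches to CAGGAAG, an ETS family motif, searched on both strands together with GATAA for GATA factors and TGTGGT for RUNX factors. No motif contains another, and a match on the strand opposite to the one printed appears as CTTCCTG.
ITGA2B, chr17:44389600-44389899, reverse strand: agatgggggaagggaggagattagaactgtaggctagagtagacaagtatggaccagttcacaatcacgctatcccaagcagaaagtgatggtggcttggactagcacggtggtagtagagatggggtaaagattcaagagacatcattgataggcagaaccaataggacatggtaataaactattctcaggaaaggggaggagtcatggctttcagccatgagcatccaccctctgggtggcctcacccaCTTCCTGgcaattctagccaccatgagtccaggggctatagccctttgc
CD9, chr12:6199696-6199995, forward strand: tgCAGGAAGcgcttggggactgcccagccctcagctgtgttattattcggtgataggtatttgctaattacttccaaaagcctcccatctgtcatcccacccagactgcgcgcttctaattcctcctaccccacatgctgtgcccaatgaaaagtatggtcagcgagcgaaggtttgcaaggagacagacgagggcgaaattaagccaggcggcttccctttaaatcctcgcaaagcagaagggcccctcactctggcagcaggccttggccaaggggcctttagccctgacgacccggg
CD9, chr12:6200150-6200449, forward strand: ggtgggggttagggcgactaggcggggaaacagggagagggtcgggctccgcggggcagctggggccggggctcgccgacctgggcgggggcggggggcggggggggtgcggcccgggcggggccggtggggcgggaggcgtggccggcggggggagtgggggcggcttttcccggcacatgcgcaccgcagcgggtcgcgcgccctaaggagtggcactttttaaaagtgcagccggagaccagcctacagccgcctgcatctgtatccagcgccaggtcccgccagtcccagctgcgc
THBS1, chr15:39580829-39581128, forward strand: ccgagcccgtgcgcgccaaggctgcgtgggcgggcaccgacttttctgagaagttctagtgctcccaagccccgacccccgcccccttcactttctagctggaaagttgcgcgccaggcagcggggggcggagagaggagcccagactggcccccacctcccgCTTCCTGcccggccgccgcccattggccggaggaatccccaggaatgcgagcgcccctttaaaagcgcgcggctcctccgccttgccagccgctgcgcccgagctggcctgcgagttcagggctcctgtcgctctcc
LTBP1, chr2:32946703-32947002, forward strand: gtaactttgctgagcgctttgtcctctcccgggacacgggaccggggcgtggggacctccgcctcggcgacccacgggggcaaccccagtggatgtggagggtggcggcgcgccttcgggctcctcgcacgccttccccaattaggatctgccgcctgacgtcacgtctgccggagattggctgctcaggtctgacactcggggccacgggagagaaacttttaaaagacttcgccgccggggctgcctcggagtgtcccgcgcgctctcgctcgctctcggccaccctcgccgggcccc

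The ETS motif was matched once in the ITGA2B window, beginning at base 2 of the transcript on the opposite strand, and once in the THBS1 window, beginning at base -87 on the opposite strand. The upstream CD9 window held it once, at base -248, and the LTBP1 window and the other CD9 window shown held none. Among all 35116 windows of this length in the table, 12.7% hold the ETS motif, 22.7% the GATA motif and 13.1% the RUNX motif. No window shown held GATAA or TGTGGT on either strand. Another LTBP1 window, with its start at 33134596 and not on a listed bait, is not shown. It held TGTGGT at bases -94 and -56. Other forms of the GATA, ETS and RUNX sites were not searched, and the letters GATAG occur in the ITGA2B window and the upstream CD9 window. A match is a description of the letters only. G and C made up 68.7% of the LTBP1 window, 70.0% of the THBS1 window and 75.7% of the second CD9 window, against 49.7% of the ITGA2B window.

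CD9 encodes a tetraspanin, a membrane protein that organises integrins on the platelet surface. Its bait fragment, chr12:6195936-6209561, holds the lower end of the gene (6199946 to 6238266) and had 14 interactions in ponatinib and 10 in DMSO, of which 9 were shared. These 9 are 64.3% of its ponatinib interactions and 90% of its DMSO interactions. All lay on chromosome 12, on both sides of the gene. With shared pairs counted for each list, its share in ponatinib was 58.3% (36.6 to 77.9%). That interval holds the 52.1% of the whole lists.

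The larger group of CD9 partners lay beyond the far end of the gene. It spans 67.9 kb at chr12:6243830-6311774, 43.4 to 106 kb from the bait, and holds 9 listed fragments, most of them in the long non-coding RNA gene LOC105369625. There were 9 of these pairs in ponatinib and 6 in DMSO, and all 6 of the DMSO pairs were also in ponatinib. The highest score of CD9 in either list fell here, on the same fragment, chr12:6266776-6272795, 67.0 kb away. It was 11.52 in ponatinib, above 88.3% of that list, and 9.41 in DMSO, above 82.6% of that list. Of the 6 shared pairs 5 had the higher score in ponatinib, and their median score was 10.1 in ponatinib and 7.25 in DMSO. The exception was the fragment at 6295557 to 6298797, with 5.20 in ponatinib and 7.70 in DMSO. The 3 pairs found in ponatinib only had scores of 6.58, 6.91 and 6.83, and the last of them joins the CD9 bait to that of PLEKHG6.

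Towards lower coordinates every CD9 partner lay inside VWF, another gene of the list. There were 4 such pairs in ponatinib and 4 in DMSO, with 3 shared, between 129 and 212 kb from the CD9 bait. The pair with the fragment at 5988690 to 5993450 scored 9.71 in ponatinib and 5.35 in DMSO. The pair with 6048969 to 6056579 scored 8.11 in ponatinib and 5.97 in DMSO, and that with 6056580 to 6066568 scored 6.05 in ponatinib and 7.77 in DMSO. The body of VWF was thus listed with the CD9 bait in both libraries, through 3 identical fragments. One further CD9 pair, with a bait that overlaps VAMP1 and TAPBPL 266 kb away, was in ponatinib only with a score of 5.75.

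ITGB3 encodes the beta subunit of the platelet fibrinogen receptor. Its bait, chr17:47253278-47259382, holds the start of the gene (47253827 to 47313743) and had 6 interactions in ponatinib and 3 in DMSO, and the 3 were also in ponatinib. All partners lay downstream, between 32.5 and 63.2 kb away, and all but 1 overlap ITGB3 itself. The pair with 47312186 to 47313426, which reaches almost to the end of the gene, scored 9.79 in ponatinib and 7.82 in DMSO. The neighbouring pair with 47309408 to 47312185 scored 5.67 in ponatinib and 7.91 in DMSO, and the pair with 47316056 to 47323012, beyond the gene, scored 5.94 in ponatinib and 8.82 in DMSO. Of the 3 shared partners 2 thus lie in the last part of the gene and 1 beyond it, and all 3 overlap the non-coding gene EFCAB13-DT. The pairs in ponatinib only, nearer to the bait, scored 5.60, 5.73 and 7.32. Of the numbers of both lists summed, 9, the share in ponatinib was 66.7% (29.9 to 92.5%). At scores of 7 or more the order turned, with 2 pairs in ponatinib and 3 in DMSO.

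The fragment next to this bait, chr17:47259383-47260438, is also a listed bait inside ITGB3 but holds neither end of the gene, so its pairs are not counted above. It had 7 interactions in ponatinib and 7 in DMSO, with 3 shared. Of its partners 3 in ponatinib and 3 in DMSO were also partners of the ITGB3 bait in the same list. Its highest score in ponatinib, 9.39, was with 47312186 to 47313426, where DMSO had 6.55, and its highest in DMSO, 7.53, was with 47309408 to 47312185, where ponatinib had 8.65. The end of the gene was therefore listed from both neighbouring baits in each library.

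ITGA2B encodes the alpha subunit of the same receptor and is a classic early marker of the lineage. Its bait, chr17:44375391-44390096, holds the upper end of the gene (44372181 to 44389649), which is its start, and had 2 interactions in ponatinib and 3 in DMSO with none in common. In ponatinib both were close by, 9.77 and 16.3 kb away, with scores of 5.74 and 5.15, and the second lies at an end of GPATCH8. In DMSO the partners were the bait of UBTF 168 kb away, with 5.12, and fragments on chromosomes 19 and 6 with 5.40 and 6.19. The highest of the 5 scores, 6.19, stood above 43.6% of the DMSO list. GPATCH8, the neighbouring gene, was the gene most like ITGA2B by partners: 3 fragments were common to both, 37.5% of the union of their partners, over the 2 libraries. GPATCH8 had 6 interactions in ponatinib and 2 in DMSO. No other gene of the list had 3 partner fragments in common with a gene on another bait.

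GP1BA encodes the receptor chain that binds von Willebrand factor. The whole gene (4932277 to 4935023) lies on its bait, chr17:4927601-4936910. It had 1 interaction in ponatinib, with a fragment 1482 kb away and a score of 5.28, and 1 in DMSO, with the bait shared by SPAG7 and CAMTA2 37.6 kb away and a score of 6.54.

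LTBP1 encodes latent transforming growth factor beta binding protein, which holds that factor inactive in the matrix and is released by platelets. It is the longest gene of the list, at 452557 bases (chr2:32946953-33399509). Its bait, chr2:32945137-32948811, holds the start and had 14 interactions in ponatinib and 17 in DMSO, with 8 shared. The shared pairs are 57.1% of those in ponatinib and 47.1% of those in DMSO. At scores of 7 or more it had 8 in ponatinib and 6 in DMSO, so the order of the numbers turned. LTBP1 had more interactions than 85.2% of genes with a bait in ponatinib and more than 91.1% in DMSO.

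The main LTBP1 contact was with a short stretch inside TTC27, a gene at lower coordinates. It spans 15.9 kb at chr2:32771088-32786989, 162 to 174 kb from the bait, and is covered by 8 listed fragments that follow one another. All 8 were listed in ponatinib and 6 in DMSO, and all 6 were shared. The highest score of LTBP1 in ponatinib was here, 11.45 at 32774610 to 32776247, where DMSO had 6.63. The highest in DMSO was here too, 9.56 at 32781079 to 32781563, where ponatinib had 8.69. That fragment was the exception among the 6 shared, since the other 5 had the higher score in ponatinib. The median over the 6 was 8.62 in ponatinib and 6.8 in DMSO. The 2 pairs in ponatinib only lay at the near edge of the stretch and scored 8.52 and 6.32.

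Other LTBP1 contacts were listed less evenly. A group in BIRC6, 369 to 404 kb from the bait, had 2 pairs in ponatinib and 3 in DMSO with 1 shared, which scored 6.85 in ponatinib and 7.25 in DMSO. An end of TTC27, on a bait 319 kb away, was not listed in ponatinib and had a score of 8.14 in DMSO. The bait of FAM98A, 653 kb away on the other side, was likewise not listed in ponatinib and had 8.40 in DMSO. Within LTBP1 itself there were 3 pairs in ponatinib and 5 in DMSO with 1 shared, at 323 kb, scoring 5.41 in ponatinib and 6.37 in DMSO. A group 420 to 431 kb into the gene had 1 fragment in ponatinib and 3 others in DMSO, within 16.4 kb of sequence. A pair with a fragment in DST on chromosome 6 was in ponatinib only, with a score of 5.37.

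THBS1 encodes thrombospondin, an adhesive protein of platelet alpha granules. Its bait, chr15:39579808-39583506, holds the start of the gene (39581079 to 39599466) and an end of LOC124903470, and had 6 interactions in ponatinib and 12 in DMSO. It was the gene with the largest difference in number among the 5, with a log2 ratio of -0.89. Its share in ponatinib, of the numbers of both lists summed, was 33.3% (13.3 to 59.0%). That interval holds 50% and the 52.1% of the whole lists. At scores of at least 7 the numbers were 2 in ponatinib and 1 in DMSO, so the order depended on pairs of low score.

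Only 1 THBS1 pair was identical in both lists. It joins the bait to 38817489 to 38828531, 759 kb away, in a stretch with no annotated gene, and scored 9.37 in ponatinib and 6.89 in DMSO. The neighbouring fragment at 38816367 to 38817488 scored 9.71 in ponatinib and was not in DMSO, while 2 others within the same 35.6 kb were not in ponatinib and had 7.09 and 5.81 in DMSO. Most remaining partners lay 186 to 463 kb from the bait inside the long non-coding RNA gene LOC105370777, and no pair there was identical between the lists. Where the far ends were allowed to lie within 5 kb of each other, 4 of the 6 ponatinib pairs and 3 of the 12 DMSO pairs had a match. One pair, in DMSO with a score of 5.38, pointed the other way, to a fragment in FSIP1 177 kb from the bait.

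**Figure D2:**
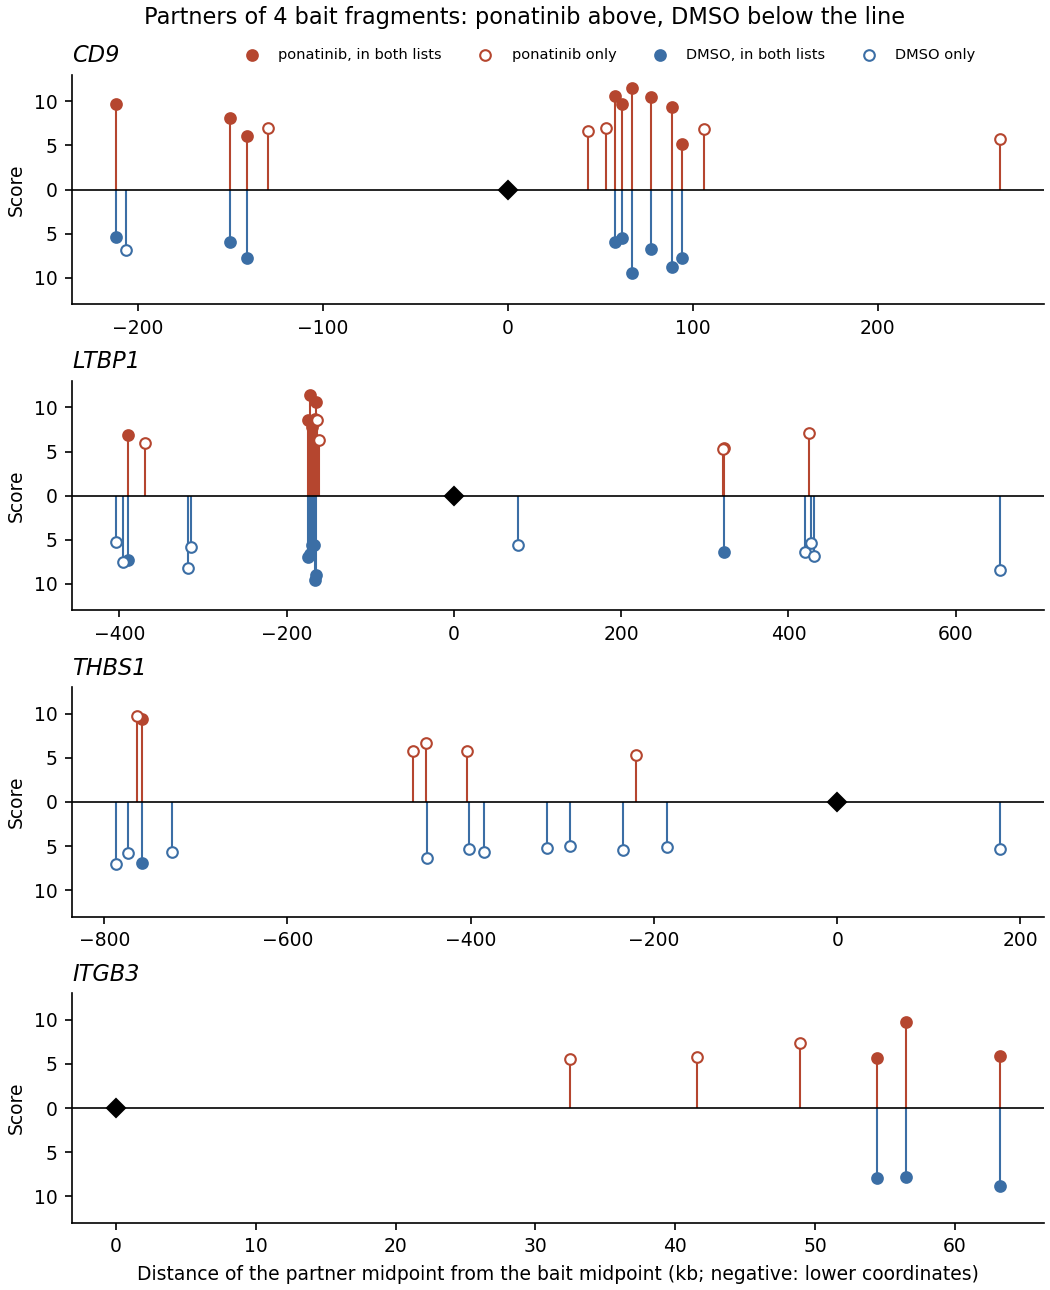
Distance of each partner from the bait (x axis, kb between midpoints, with lower coordinates to the left) and score of the pair (y axis) for CD9, LTBP1, THBS1 and ITGB3, with ponatinib drawn upwards and DMSO downwards from 0. Filled points are pairs in both lists, open points pairs in 1 list, and the diamond is the bait. Shared pairs lie together in a few places, near 67.0 kb at CD9 and near 172 kb below the bait at LTBP1, whereas THBS1 has 1.

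VWF encodes von Willebrand factor, the large plasma and granule protein that tethers platelets to collagen. The fragment that the rule assigns to it, chr12:5939918-5951474, holds the lower end of the gene (5948877 to 6124670). VWF is transcribed towards lower coordinates, so this is its 3' end, and the fragment also holds the start of ANO2. It was listed as a bait in ponatinib only, with 1 interaction of score 5.62 that joins it to a fragment in LONP2 on chromosome 16. In DMSO it had 0 listed interactions. The fragment beside the other end of the gene, chr12:6124756-6128412, begins 86 bases beyond VWF and is a bait, but it lies outside the rule. It had 1 interaction, in DMSO, with a score of 6.42. Its partner, 171 kb away at 6295557 to 6298797, is among the partners of the CD9 bait described above. The values at this fragment were looked at because it came in when gene ends within 1 kb of a fragment were allowed.

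PF4 encodes platelet factor 4, a chemokine stored in alpha granules. Neither end of PF4 (chr4:73980811-73982124) lay on a listed bait, and no listed fragment of either library overlapped the gene. The nearest bait, chr4:73986388-73989621, starts 4.26 kb away and holds PPBP, the gene of another platelet chemokine. It had 0 interactions in ponatinib and 1 in DMSO.

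FLI1 encodes the ETS factor that drives megakaryocyte genes. Its bait, chr11:128685126-128686187, is the shortest of the list at 1062 bases and holds the start of the gene (128685132 to 128813267). It had 1 interaction in ponatinib, with a bait in KIRREL3 2041 kb away and a score of 6.14, and was listed at 0 in DMSO.

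Seen together, the genes had a share in ponatinib of 49.5% (38.8 to 60.1%), against 52.1% (51.8 to 52.3%) over the whole lists. Shared pairs count for each list in these shares. Of the 70 distinct pairs of the genes, 45 were listed in ponatinib and 46 in DMSO. At scores of 7 or more the order turned, with 19 pairs in ponatinib and 14 in DMSO (57.6% in ponatinib, 39.2 to 74.5%), against 53.2% over the whole lists. By gene, 4 of the 8 with a bait had more in ponatinib (50%), 3 fewer (37.5%) and 1 the same number. Over all 13721 genes with a bait 48.0% had more in ponatinib and 37.3% fewer. Of the 4 genes with more, VWF and FLI1 had a listed bait only through 1 ponatinib pair each. Among the 5 genes with at least 5 interactions, 2 had more in ponatinib (40%) and 3 fewer (60%). Over all genes with as many, 51.1% had more and 37.6% fewer. The shared pairs made up 46.7% of those in ponatinib (31.7 to 62.1%) and 45.7% of those in DMSO (30.9 to 61.0%), and over the whole lists 40.7% and 44.3%. These shares hold the values of the whole lists within their intervals. The sharing came mostly from CD9 and LTBP1: 12 of the 21 shared pairs lay in the stretch beyond CD9 and the stretch in TTC27.

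Scores of the shared pairs were higher in ponatinib for 14 of 21 (66.7%, 43.0 to 85.4%), and over the whole lists for 53.6%. Their median was 8.69 in ponatinib and 6.97 in DMSO, against 8 in ponatinib and 7.73 in DMSO for all shared pairs. Of these 14 pairs 10 were in the CD9 and TTC27 stretches. Scores of at least 10 were reached by 5 pairs in ponatinib and 0 in DMSO, and all 5 lay in those stretches, 3 at CD9 and 2 at LTBP1. These are 11.1% of the genes' pairs in ponatinib (3.71 to 24.1%) and 0% in DMSO (0 to 7.71%), and over the whole lists 16.4% in ponatinib and 14.9% in DMSO scored as high. Pairs with neighbouring fragments are not separate observations.

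**Figure D3:**
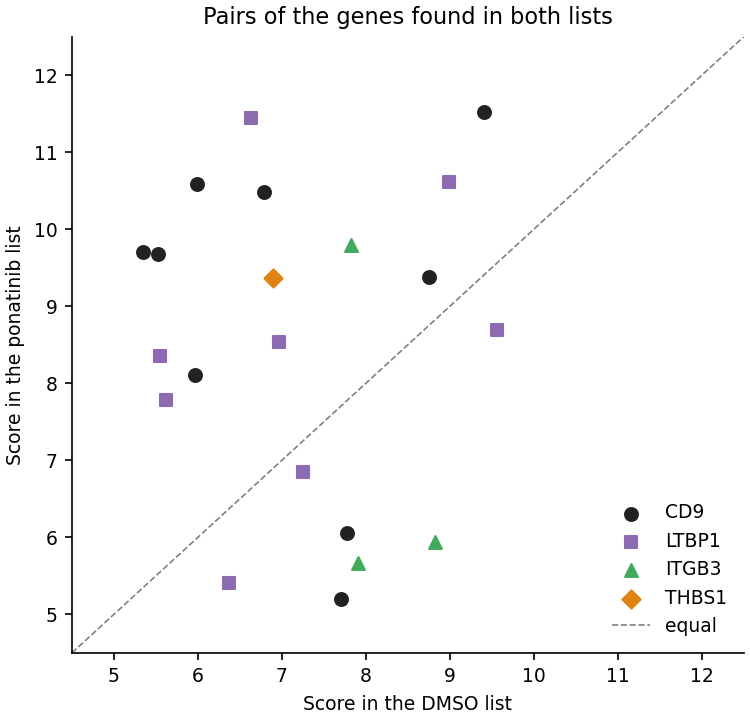
Score in the ponatinib list (y axis) against the score in the DMSO list (x axis) for the 21 pairs of the genes found in both, by gene, with the line of equal scores dashed. Of these pairs 14 lie above the line, mostly from CD9 and LTBP1, and 2 of the 3 from ITGB3 lie below it.

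Few partners were themselves listed baits. In ponatinib 3 of 45 partners were themselves baits (6.67%, 1.40 to 18.3%) and in DMSO 4 of 46 (8.70%, 2.42 to 20.8%), against 18.7% in ponatinib and 19.1% in DMSO over the whole lists. These are unlike measures, since a pair that joins baits counts once over the whole list but can be met from either of its baits. The intervals are therefore not read against the values of the whole lists. None of the 21 shared pairs had a partner that holds an end of a protein-coding gene. The partner overlapped no protein-coding gene in 17 of 45 pairs in ponatinib and 19 of 46 in DMSO, and lay in the gene of the bait itself in 8 in ponatinib and 7 in DMSO. Shares over the whole lists are not given for these overlaps with genes and gene ends, which describe the listed genes only. The median distance on 1 chromosome was 164 kb in ponatinib and 196 kb in DMSO, against 242 and 234 kb over the whole lists. Of the pairs between chromosomes 2 were in ponatinib and 2 in DMSO.

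A wider list of 74 other megakaryocyte and platelet genes was read in the same way. Of these 51 had a listed bait and 23 did not, RUNX1, NFE2, GATA2 and TUBB1 among those without. The 51 had 286 interactions in ponatinib and 262 in DMSO, a share in ponatinib of 52.2% (47.9 to 56.4%). By gene, 24 had more in ponatinib (47.1%), 21 fewer (41.2%) and 6 the same number, against 48.0% more and 37.3% fewer over all genes with a bait. The median log2 ratio was 0, as over all genes with a bait. Of the 35 with at least 5 interactions, 3 (8.57%) had at least 2-fold more and 3 (8.57%) at least 2-fold fewer, shares near the 9.92% and 6.26% of all genes.

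The genes with more were VCL, P2RX1 and GATA1. VCL encodes vinculin, which links integrins to actin, and had 17 interactions in ponatinib and 6 in DMSO with 4 shared. P2RX1, an ATP-gated channel of platelets, had 5 in ponatinib and 1 in DMSO, on fragments that also hold ends of ATP2A3 and CAMKK1. GATA1, the factor that erythroid cells and megakaryocytes share, had 5 in ponatinib and 1 in DMSO. The genes with fewer each had 2 in ponatinib and 5 in DMSO. They were F2R, the thrombin receptor, MYL9, a myosin light chain, and MAFG, the partner of NFE2, whose fragments also hold ends of SIRT7 and other genes.

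By role, transcription factor genes had 53 interactions in ponatinib and 35 in DMSO, with 7 of 11 genes more (63.6%), 1 fewer (9.09%) and 3 equal, against the 48.0% more and 37.3% fewer of all genes. Among those with at least 5 interactions, 5 of 7 had more (71.4%) and 1 fewer (14.3%), against 51.1% more and 37.6% fewer over all genes with as many. Their share in ponatinib was 60.2% (49.2 to 70.5%). Genes of granule and secreted proteins had 39 in ponatinib and 54 in DMSO, with 3 of 11 genes more (27.3%) and 8 fewer (72.7%), and a share of 41.9% (31.8 to 52.6%). Of the 8 granule genes with fewer, 5 had under 5 interactions, and among the 6 with at least 5 there were 3 with more and 3 with fewer. Both intervals hold the 52.1% of the whole lists. Adhesion receptor genes had 71 in ponatinib and 65 in DMSO. Of their 7 genes with at least 5 interactions 5 had more (71.4%) and 2 fewer, so such a part was not particular to transcription factors. Agonist receptor and signalling genes had 99 in ponatinib and 92 in DMSO, with 6 of 12 such genes more and 5 fewer. Cytoskeleton genes had 24 in ponatinib, 17 of them from VCL, and 16 in DMSO. Their share in ponatinib was 60% (43.3 to 75.1%), with 1 of 3 such genes more and 2 fewer. The most contacted genes of the wider list were JAK2, the kinase of the thrombopoietin receptor, with 30 in ponatinib and 33 in DMSO, and the tetraspanin gene CD63 with 24 and 21. ICAM2 had 14 in ponatinib and 11 in DMSO, and CLU had 11 and 12.

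**Figure D4:**
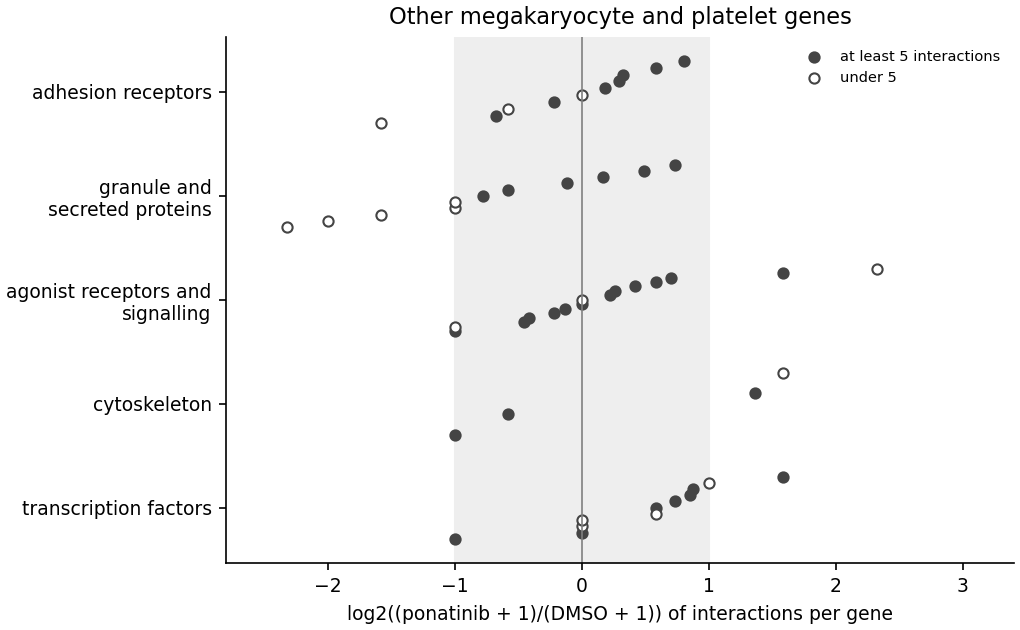
log2((ponatinib + 1)/(DMSO + 1)) of the number of interactions (x axis) for 51 other megakaryocyte and platelet genes with a listed bait, by role (rows), 1 point per gene. Filled points are the 35 genes with at least 5 interactions, and the edges of the grey band mark 2-fold. Of the genes of granule and secreted proteins 8 of 11 lie left of 0, but 3 of the 6 filled points do, and of those of transcription factors 7 of 11 lie right of 0, where 48.0% of all genes with a bait lie.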

How the data were processed

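Promoter-capture Hi-C of K562 cells was deposited as 1 list of fragment pairs per library, after HindIII digestion and capture of promoter fragments with RNA probes, per the labels' protocols. Coordinates are on hg38 per the submitters' processing notes. How reads were aligned, how pairs were called and how the score was computed is not given in the sources here. The score in each deposited list is the authors' own value, and none is below 5. The lists carry no read counts, so depth is unknown.

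From these lists, unordered pairs were taken (the ponatinib list had 91306 lines and 91305 pairs). Genes came from a RefSeq table of GRCh38.p14. They were placed by either end, since that table gives no strand, so a fragment can be at the 3' end of a gene. Distances are between fragment midpoints, shared pairs are identical fragment pairs, and partner fragments up to 20 kb apart were described as 1 stretch. A rank within a list is the share of its pairs with a lower score. A gene was counted as 2-fold different with at least 5 interactions over both lists and a pseudocount of 1, so that small numbers give understated differences. The counting was tested on simulated lists with known numbers.

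No test was made, since there is 1 library per treatment. The members and lists were chosen with earlier results of these data known. Named were the 9 genes, genes at the partners of shared pairs or of the highest scores, the gene with most partner fragments in common if at least 3, and of the wider list the genes past 2-fold and the 5 with most interactions. NUP214 and ABL1 had been set as a check of the cell line, and the pairs between chromosomes 9 and 22 are given in their place. ANO2, LONP2, other genes on partner fragments, wider-list genes without a bait and the ITGB3 and VWF fragments outside the rule were named after their values were seen. Alternatives were scores of at least 7 or 10, lists of equal length, pairs on 1 chromosome, gene ends within 1 kb, transcription starts only, ends matched within 5 or 10 kb, each gene left out, a pseudocount of 0.5, a minimum of 10 interactions and division of the ponatinib numbers by how much longer that list is (1.09 times). Python 3.11.15, pandas 2.3.3 and scipy 1.17.1 were used.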

Additional observations from a re-analysis of the deposited data

How the results depend on the processing

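At scores of at least 7 the shared pairs were 26.3% of the genes' pairs in ponatinib, and at 10 they were 0%, since no pair of the genes in DMSO scored so high; the share of pairs in ponatinib was then 100% (5 of 5). With both ends matched within 5 kb the shared part was 71.1% of ponatinib and 60.9% of DMSO pairs, and within 10 kb it was 77.8% of ponatinib and 65.2% of DMSO pairs. A match could come from a neighbouring bait, so these shares are not limited to the genes' own baits. The GP1BA pair in DMSO was matched within 10 kb, although the GP1BA partner in ponatinib lay 1482 kb from the bait. Over the whole lists the same matching gave 66.6% in ponatinib and 67.5% in DMSO within 5 kb, and 71.9% in ponatinib and 72.3% in DMSO within 10 kb. At scores of 7 or more the genes' share in ponatinib was 57.6%, so their order turned. For THBS1 66.7% of pairs (2 of 3) were in ponatinib with scores of 7 or more. At 10 it was 100% for CD9 (3 of 3) and LTBP1 (2 of 2). LTBP1 at scores of at least 7 had 57.1% in ponatinib, and ITGB3 had 40%, so both orders turned. That of ITGA2B turned on 1 chromosome, with 66.7% (2 of 3). Leaving out each gene in turn gave shares in ponatinib of 46.3% to 53.4%, highest without THBS1, and above 50% also without LTBP1. Genes 2-fold different over all genes numbered 971 more and 613 fewer of 9787 in the main setting. They numbered 467 more and 243 fewer of 6381 with a minimum of 10 interactions. At scores of at least 7 they were 520 more and 257 fewer of 4865, so fewer genes could be called in both of these settings. In the wider list 12 genes could be called at scores of at least 7. Of these 2 had 2-fold more and 0 had 2-fold fewer, beside the 520 and 257 of 4865 over all genes. Scaling ponatinib numbers down to the length of the DMSO list gave 671 more and 626 fewer of all 9787 genes. A pseudocount of 0.5 cannot change this count, because whole numbers pass both rules alike. Of the genes that could be called, 0 passed 2-fold under the 4 settings tried for them, which were chosen after the data were seen. These were 5 genes under the pseudocount and the scaling, and 3 with a minimum of 10 interactions or scores of at least 7. Transcription starts could be used for 4 genes only, on the same fragments. No paired analysis was possible because each treatment has 1 library.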
